A study of Homo sapiens with 6 samples.

Results

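The genes described here are the 10 that encode the JUN, FOS and ATF-like transcription factors of the AP-1 family: JUN, JUNB, JUND, FOS, FOSB, FOSL1, FOSL2, ATF3, BATF and BATF3. They were chosen by gene symbol in a count table of 65746 genes, and each of the 10 was found as 1 row. The family was picked with the difference between treated and control cells already known, and the count, CPM and TPM values of that contrast are therefore a description of these genes, without a test. All 10 were among the 11525 genes that passed the filter on low counts. The cells were SU-DHL-8, an established human line from a diffuse large B-cell lymphoma, labelled wild type. One group of 3 libraries came from cells kept for 24 h with beta-sitosterol, a plant sterol, at 15 µM, and the other group of 3 from cells given the solvent DMSO for 24 h. The design describes replicate experiments, so p-values measure the spread between these samples, and a single line at 1 dose and 1 time was studied.

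AP-1 is not a single protein but a set of dimers. JUN proteins pair with each other or with FOS proteins through a leucine zipper, whereas FOS proteins need a partner, and the dimers bind short DNA elements related to TGACTCA. JUN and FOS are textbook immediate early genes, transcribed within minutes of a stimulus through MAP kinases, and in B cells they respond to antigen receptor and stress signals. ATF3, BATF and BATF3 share the basic leucine zipper and pair with JUN proteins, and BATF proteins bind with interferon regulatory factors in lymphocytes.

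The libraries held 26453101 to 35565163 counts. The control libraries varied more than the treated ones, the median over genes of the SD of log2 CPM being 0.27 for DMSO and 0.09 for treated replicates, and DMSO replicate 2 correlated least with its group. All 10 B cell markers examined passed the filter, with a summed level of 2110 to 2784 CPM in DMSO and 2576 to 2744 CPM in treated libraries. Within that sum edgeR called 4 of the 10 higher and 2 lower, against 19.0% and 21.8% of all genes. The share called lower was thus near the background. MS4A1, the gene of CD20, rose from 3.92 ± 0.63 to 18.3 ± 1.36 CPM, and CD79A, CD37 and FCRLA also rose. The B cell identity factors PAX5 (660 ± 43.5 CPM in DMSO, 208 ± 9.36 CPM treated) and EBF1 (80.7 ± 26.1 and 19.3 ± 1.19 CPM) fell. The 8 T cell markers summed to 2.91 to 3.55 CPM in DMSO and 3.02 to 4.51 CPM in treated libraries, with CD3E, CD3G and CD2 at 0. Most of that sum came from CD247, which was called higher (1.36 ± 0.19 and 2.37 ± 0.58 CPM), and TRAC, which was not called (1.87 ± 0.15 and 1.38 ± 0.23 CPM). The 7 myeloid markers summed to 5.18 to 7.28 and 6.35 to 8.47 CPM, with S100A8, S100A9 and FCN1 at 0. Most of this came from LYZ, at 5.19 ± 1.21 CPM in DMSO and 5.83 ± 0.87 CPM in treated libraries. The 6 fibroblast and epithelial markers summed to 0.14 to 0.16 CPM in DMSO and 0.85 to 2.0 CPM in treated libraries, without overlap. COL1A1, the 1 of them that passed the filter, had 0 counts in DMSO and 0.45 to 0.91 CPM in treated libraries. It passed only through the treated libraries, so it could only be called higher, and that call is no test. The part of these markers in the results was not tested. In bulk RNA, fewer cells that express a gene and less of its RNA per cell cannot be told apart.

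Levels are given as CPM, counts scaled to a common library size with TMM factors, for comparing 1 gene between libraries. JUN, the first JUN family gene and the most strongly activating of them, was at 6.31, 6.12 and 7.53 CPM in DMSO replicates 1 to 3 and at 278, 252.9 and 274 CPM in the treated replicates. The lowest treated library lay 33.6 times above the highest DMSO library. The log2 fold change was 5.33 ± 0.15 (SE), which is 40.3-fold, and it ranked 19 from the largest rise among the 11525 genes tested. JUNB, which can oppose JUN on some promoters and is abundant in several lymphomas, was at 32.4, 38.3 and 39.3 CPM in DMSO and at 149, 137.5 and 152.5 CPM in treated libraries. Its groups did not overlap either, and its log2 fold change was 1.998 ± 0.13. JUND, the JUN gene that is commonly expressed in resting cells, was at 77.5, 51.9 and 91.04 CPM in DMSO and at 109, 88.4 and 98.2 CPM after treatment. For JUND the groups overlapped, since DMSO replicate 3 lay above treated replicate 2, and the log2 fold change was 0.43 ± 0.20. The 3 JUN genes thus had fold changes of 40.3, 3.99 and 1.34.

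**Figure D1:**
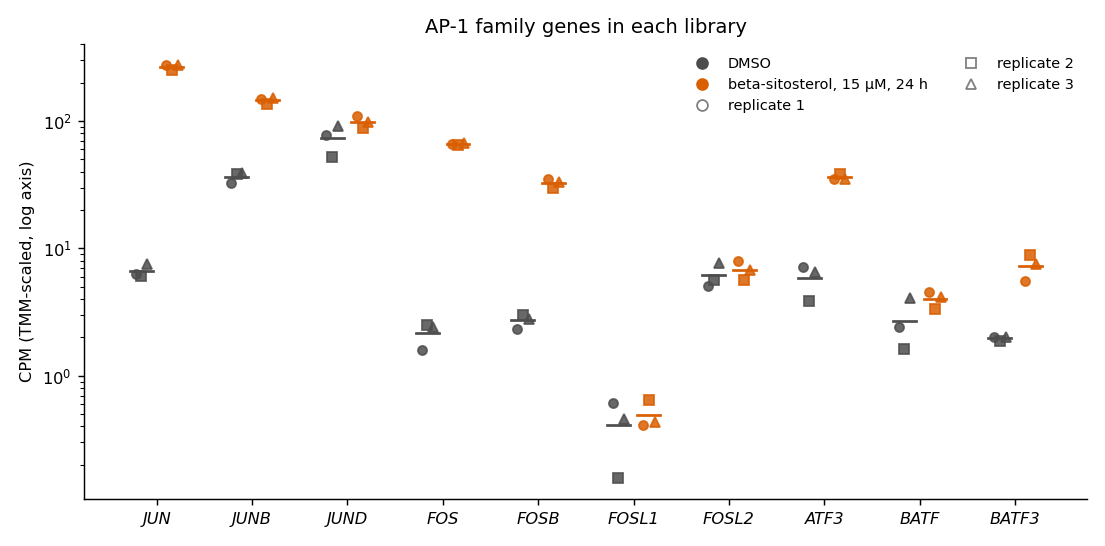
CPM on a log axis for the 10 AP-1 genes, with grey symbols for DMSO and orange symbols for beta-sitosterol, 1 symbol shape per replicate and a short line at each group's mean. JUN, JUNB, FOS, FOSB, ATF3 and BATF3 show 3 treated symbols above all DMSO symbols, while the groups overlap for JUND, FOSL1, FOSL2 and BATF.

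Among the FOS genes, FOS, the founding member whose RNA is short-lived, was at 1.59, 2.51 and 2.43 CPM in DMSO and at 65.5, 65.3 and 67.9 CPM in treated libraries. The treated values of FOS lay close together, with a coefficient of variation of 2.2% against 23.5% in DMSO, where counting alone gives 11.7%. Its log2 fold change was 4.93 ± 0.20, a 30.5-fold difference. FOSB, which pairs with JUN proteins like FOS and has a stable truncated form, was at 2.35, 3.01 and 2.80 CPM in DMSO and at 35.1, 29.9 and 33.5 CPM after treatment. The groups were apart by 9.93 times between the nearest libraries, and the log2 fold change was 3.59 ± 0.16. FOSL2, a FOS-related gene without the strong activation domain of FOS, was at 5.05, 5.68 and 7.68 CPM in DMSO and at 8.01, 5.68 and 6.80 CPM in treated cells, with overlapping groups. Its log2 fold change was 0.16 ± 0.21, and on log2(TPM + 1) it was -0.07.

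FOSL1, the other FOS-related gene, was near the floor of the assay, with 21, 5 and 16 counts in DMSO and 12, 17 and 12 counts in treated libraries. The summed counts were 42 (95% exact Poisson interval 30.3 to 56.8, counting error only) and 41 (29.4 to 55.6). No change of FOSL1 was detected, and a small one could not be measured at this depth. The sign of its log2 fold change turned from 0.25 with all libraries to -0.13 without DMSO replicate 2 and to -0.02 on log2(TPM + 1). The FOS family was thus made up of FOS and FOSB, with non-overlapping groups, and of FOSL1 and FOSL2, with overlapping ones.

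Of the ATF-like genes, ATF3, a stress-induced factor that pairs with JUN proteins and often represses, was at 7.13, 3.86 and 6.58 CPM in DMSO and at 35.1, 38.5 and 35.1 CPM after treatment. Its lowest treated library was 4.92 times the highest DMSO library, and the log2 fold change was 2.63 ± 0.22. BATF3, best known from dendritic cells and also expressed in some lymphomas, was at 2.03, 1.88 and 2.02 CPM in DMSO and at 5.60, 8.85 and 7.56 CPM in treated cells. All treated values of BATF3 were above the DMSO values, with a log2 fold change of 1.89 ± 0.22. It was the 1 gene of the 6 without overlap whose treated libraries spread more widely than the DMSO ones (coefficient of variation 22.3% against 4.12%). Counting alone gives 7.03% in treated libraries and 12.3% in DMSO, so its DMSO values lay closer together than counting error would place them. BATF, which guides class switching in B cells together with IRF4, was at 2.41, 1.63 and 4.10 CPM in DMSO and at 4.58, 3.37 and 4.15 CPM after treatment. Its groups overlapped through DMSO replicate 3, and the log2 fold change was 0.57 ± 0.32.

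Counted over the family, 6 genes had treated values wholly above DMSO and 0 wholly below, where 27.0% of all tested genes lay wholly above and 29.1% wholly below (56.1% in all). The same 6 genes, JUN, JUNB, FOS, FOSB, ATF3 and BATF3, were past an adjusted p of 0.05 in edgeR's quasi-likelihood test over all genes, in which 19.0% of genes were called higher and 21.8% lower (40.8% in all). No member was called lower by edgeR, DESeq2 or limma, and 0 had an unadjusted edgeR p under 0.05 in that direction. Nothing is read from these counts, since the family was chosen with this contrast known. The median log2 fold change was 1.94 over the 10 genes and -0.04 over all genes tested. On log2(TPM + 1) the share of all calls that were higher was 24.3%, against 46.5% on scaled counts.

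**Figure D2:**
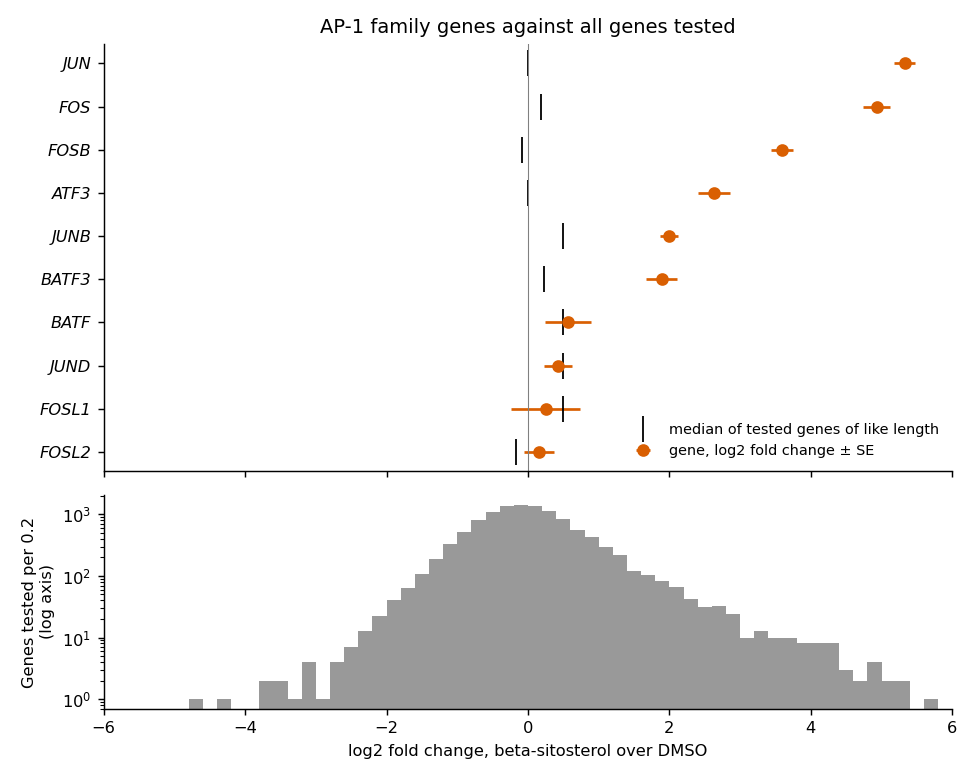
Upper panel, log2 fold change of each AP-1 gene (orange points, bars ± SE) with black ticks at the median of the tested genes in the same length decile. Lower panel, number of tested genes per 0.2 log2 units on a log axis, with 17 genes above 6 not drawn. JUND at 0.43, BATF at 0.57 and FOSL1 at 0.25 lie near the median of 0.50 for short genes, and JUN at 5.33 lies in the right tail of the tested genes.

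Fold changes over all genes followed transcript length in these libraries. From the shortest to the longest decile of tested genes by GENCODE v29 exon bases, the median log2 fold change went from 0.50 to -0.36. JUNB (1820 exon bases), JUND (1863), FOSL1 (1887) and BATF (980) were in the shortest decile. The differences of JUND, BATF and FOSL1 were thus within 1 SE of the median of like genes, whereas that of JUNB was larger at 1.998. For FOSL1, with an SE of 0.49, 0 lay within 1 SE as well. JUN (3540 exon bases) and ATF3 (4040) were in the fourth decile, with a median of 0.00, and FOSB (5553) was in the sixth, with a median of -0.08. BATF3 (2713) and FOS (3238) were in deciles 2 and 3, with medians of 0.22 and 0.19. FOSL2 (7157), with a log2 fold change of 0.16 ± 0.21, was in decile 8, where the median was -0.17, more than 1 SE away. The part of length in the members' values was not tested.

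Single libraries moved the 4 genes with overlapping groups. In DMSO replicate 2, log2 CPM relative to the DMSO mean was -0.46 for JUND, -0.61 for BATF, -0.55 for ATF3 and -0.96 for FOSL1, against -0.11 for JUN and 0.07 for JUNB. Without DMSO replicate 2 the log2 fold change of JUND was 0.22 and that of BATF 0.31. Without DMSO replicate 3 they were 0.65 and 1.04, and only then were both genes past the edgeR threshold, which took the family's count to 8. FOSL2 ranged from 0.02 to 0.39 over the 6 fits with a library left out. The 6 other genes were called in each of those fits, with ranges from 5.27 to 5.47 for JUN, 4.74 to 5.06 for FOS, 3.49 to 3.67 for FOSB, 2.40 to 2.79 for ATF3, 1.91 to 2.09 for JUNB and 1.73 to 2.05 for BATF3.

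**Figure D3:**
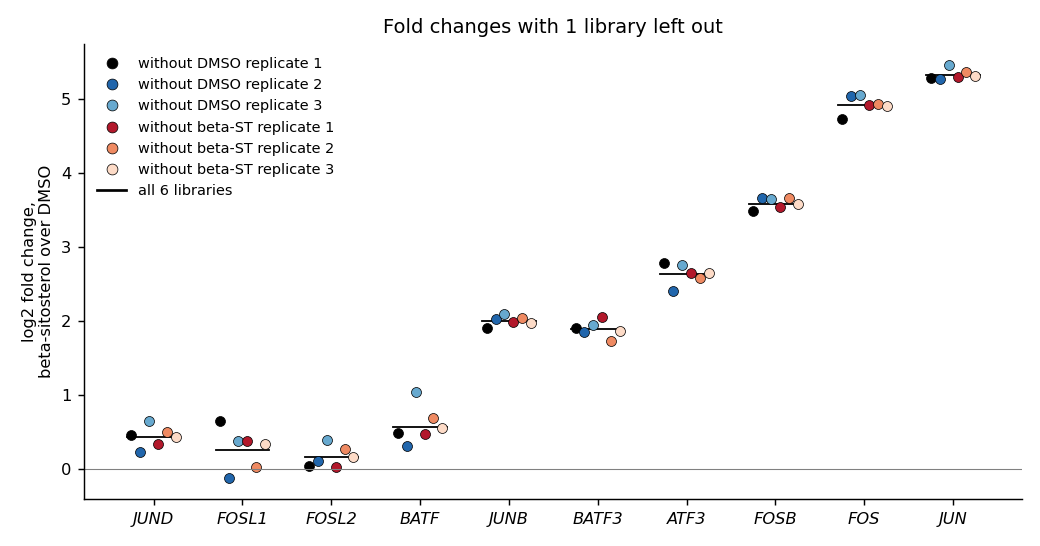
Log2 fold change of each AP-1 gene with all 6 libraries (black line) and with each library left out (coloured points). JUN stays between 5.27 and 5.47, whereas BATF runs from 0.31 without DMSO replicate 2 to 1.04 without DMSO replicate 3.

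Levels of different genes were compared as TPM, which is scaled for transcript length (its library scale was lowest in DMSO replicate 2), and as shares of the summed TPM of the 10 genes within a library, which do not depend on the library's total. In DMSO the order of mean TPM was JUND (152 ± 68.4, SD, n = 3), JUNB (94.03 ± 21.7), JUN (8.93 ± 2.77), BATF (6.86 ± 4.17), BATF3 (2.37 ± 0.64), ATF3 (2.12 ± 1.002), FOSL2 (2.11 ± 0.79), FOS (0.999 ± 0.25), FOSB (0.38 ± 0.07) and FOSL1 (0.35 ± 0.24). The ranges of JUND and JUNB, of JUN and BATF, of BATF3, ATF3 and FOSL2, and of FOSB and FOSL1 overlapped between these neighbours. JUND nevertheless stood above JUNB in each of the 3 DMSO libraries, narrowly in replicate 2 (74.9 against 71.9 TPM). After treatment the order was JUNB (310 ± 16.8), JUN (292 ± 16.2), JUND (161 ± 18.9), FOS (25.5 ± 0.37), ATF3 (10.3 ± 0.56), BATF (7.93 ± 1.27), BATF3 (7.16 ± 1.54), FOSB (3.83 ± 0.34), FOSL2 (1.91 ± 0.35) and FOSL1 (0.32 ± 0.08). Here the ranges overlapped between JUNB and JUN and between BATF and BATF3. JUN and FOS moved up from ranks 3 and 8 to ranks 2 and 4.

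As a share of the 10 genes' TPM, JUN went from 3.22%, 3.67% and 3.21% in the DMSO libraries to 35.4%, 35.9% and 35.5% in the treated ones. JUND went from 59.3%, 46.6% and 58.1% to 20.9%, 18.8% and 19.1%, although its own CPM was not lower. JUNB held 32.2%, 44.7% and 32.6% in DMSO and 37.0%, 37.9% and 38.5% after treatment, with overlapping groups. Within the FOS family, FOSL2 made up 52.4% to 57.9% of TPM in DMSO and 5.17% to 7.02% after treatment, and FOS 22.7% to 32.2% and 79.3% to 82.1%. The FOS genes remained a small part beside the JUN genes: their summed TPM was 1.54% ± 0.21 of that of the JUN genes in DMSO and 4.14% ± 0.16 in treated cells. For ATF3, BATF and BATF3 together this ratio was 4.29% ± 0.70 and 3.34% ± 0.32, with overlapping ranges of 3.57% to 4.96% and 3.07% to 3.69%.

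**Figure D4:**
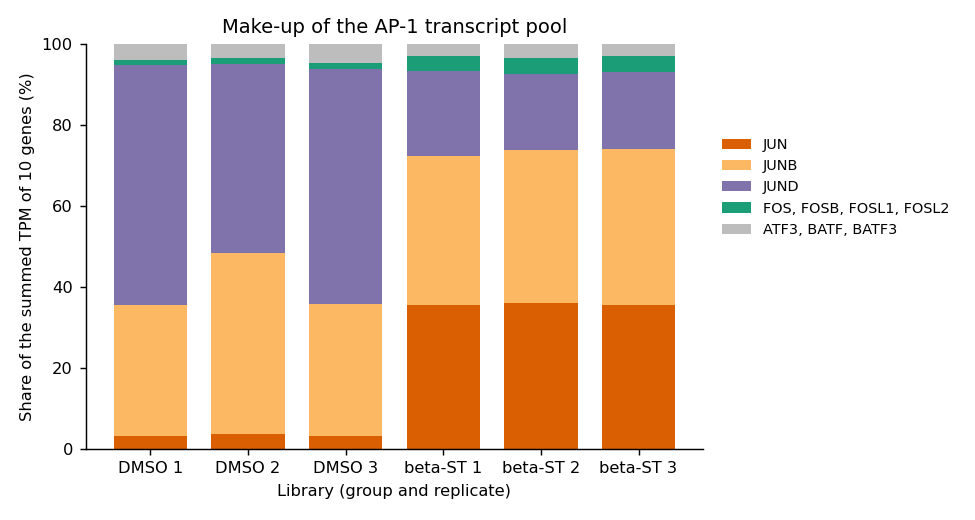
Stacked bars of the share of the 10 AP-1 genes' summed TPM in each of the 6 libraries, in percent. JUN fills 3.21% to 3.67% of the DMSO bars and 35.4% to 35.9% of the treated bars, while JUND fills 46.6% to 59.3% and 18.8% to 20.9%.

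The genes lie on chromosomes 1, 2, 11, 14 and 19, at GRCh38 positions taken from GENCODE v29. JUN (ENSG00000177606) is at chromosome 1, 58780788 to 58784327, JUNB (ENSG00000171223) at chromosome 19, 12791496 to 12793315, and JUND (ENSG00000130522) at chromosome 19, 18279760 to 18281622. Each of these 3 has a single exon block and no intron in that annotation. FOS (ENSG00000170345, chromosome 14, 75278774 to 75282230) and FOSB (ENSG00000125740, chromosome 19, 45467995 to 45475179) are short genes with introns. ATF3 (ENSG00000162772, chromosome 1, 212565334 to 212620777) and BATF3 (ENSG00000123685, chromosome 1, 212686418 to 212699985) are near each other, as are FOS and BATF (ENSG00000156127, chromosome 14, 75522425 to 75547015). FOSL1 (ENSG00000175592) is at chromosome 11, 65892049 to 65900573, and FOSL2 (ENSG00000075426) at chromosome 2, 28392448 to 28417312. JUNB shares 259 exon bases with HOOK2 on the opposite strand, and strand use in counting is not given in the sources used here. HOOK2, a gene of a microtubule linker protein, was itself called higher, from 16.6 ± 2.66 to 35.6 ± 2.33 CPM (edgeR adjusted p = 9.21e-04), so reads in the shared stretch cannot be assigned with certainty.

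RefSeq promoter windows (GRCh38.p14, 250 bases before to 50 after the start) were matched for 8 of the 10 genes, with 2 windows for ATF3. Both strands were searched for the AP-1 element TGACTCA and for the cyclic AMP response element TGACGTCA. The variant element TGACATCA, the TATA box, the CArG box bound by SRF and the NF-kB site were searched likewise. JUN and ATF3 each hold TGACATCA, a variant AP-1 element known in JUN as a site of JUN and ATF2 dimers, which was present in 2.61% of 35116 promoter windows. JUND, whose groups overlapped, holds the palindrome TGACGTCA (1.85% of windows). The stretches around these elements are shown with the motif in capitals, written 5′ to 3′ along the gene. The motif begins at position -67 in JUN, -123 in ATF3 and -200 in JUND. Positions are counted from the first transcribed base in RefSeq, the base before it being -1. In GENCODE v29 JUN starts further upstream, and the JUN stretch shown lies inside its single exon block.
JUN, chr1:58784085-58784144, minus strand: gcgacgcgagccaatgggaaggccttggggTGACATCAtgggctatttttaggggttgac
ATF3, chr1:212565254-212565313, plus strand: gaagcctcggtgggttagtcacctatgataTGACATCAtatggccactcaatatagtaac
JUND, chr19:18281793-18281852, minus strand: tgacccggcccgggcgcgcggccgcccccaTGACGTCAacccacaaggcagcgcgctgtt

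The TATA box, searched as TATAAA, was found in FOS at position -33, in JUNB at -31 and in FOSB at -30, where a TATA box usually lies. It occurred in 11.5% of all windows. A further match in the second ATF3 window began at -230. FOS, JUNB and FOSB are shown because their match lies at that usual distance, with capitals on the TATA box. For FOS the distance is from the RefSeq start, and in GENCODE v29 the gene begins before the match.
FOS, chr14:75278768-75278817, plus strand: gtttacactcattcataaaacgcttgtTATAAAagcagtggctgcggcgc
JUNB, chr19:12791426-12791475, plus strand: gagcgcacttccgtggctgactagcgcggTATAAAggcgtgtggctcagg
FOSB, chr19:45467936-45467985, plus strand: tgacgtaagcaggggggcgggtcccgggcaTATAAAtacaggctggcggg

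The FOSL2 window holds TGACTCA beginning 4 bases after its first transcribed base (4.95% of windows), and neither the CArG box (1.29%) nor the NF-kB site (5.91%) was matched in a window of these genes. Elements more than 250 bases before the start lay outside the search, so a missing match does not show that a gene lacks the element. A match describes the letters of the window, not binding.

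Genes around AP-1 were taken from 5 lists. Of 28 tested kinases and factors that act on AP-1 genes or proteins, 12 were called lower and 2 higher by edgeR (42.9% and 7.14%, against 21.8% and 19.0% of all genes), with a median log2 fold change of -0.35. MEF2D, a factor that binds the JUN promoter, fell from 719 ± 121 to 263 ± 7.37 CPM (edgeR adjusted p = 2.40e-04). SRF, the serum response factor that drives FOS, fell from 270 ± 38.2 to 150 ± 6.13 CPM, and its partner ELK1 from 67.1 ± 6.16 to 36.4 ± 0.77 CPM. MAP2K3, a p38 activator, fell from 258 ± 26.9 to 126 ± 6.29 CPM. The 2 that rose were MAPK3, which encodes ERK1, from 19.4 ± 6.18 to 40.7 ± 2.12 CPM, and MAP3K8 from 1.22 ± 0.14 to 2.73 ± 0.79 CPM. MAPK8, the gene of the kinase JNK1 that phosphorylates JUN, stood at 23.8 ± 4.62 and 21.4 ± 0.39 CPM (edgeR adjusted p = 0.48). Without treated replicate 1, 2 or 3 the lower calls numbered 6, 7 and 7, and without DMSO replicate 2 or 3 the higher calls numbered 5 and 4. MAP3K8 was not called by limma on log2(TPM + 1) (adjusted p = 0.090). MRTFA and MRTFB, listed at 0 in all libraries under their present symbols, were not evaluated.

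**Figure D5:**
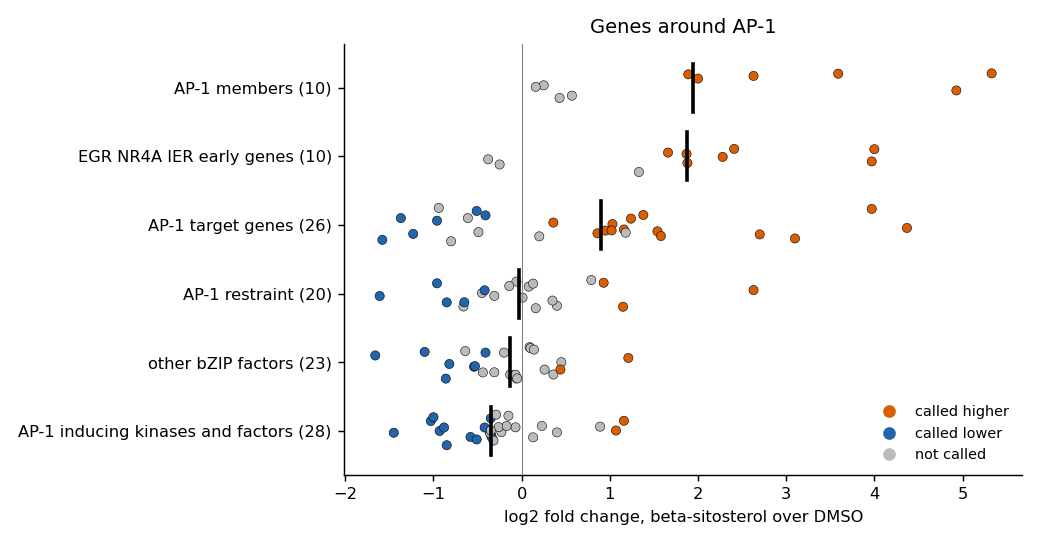
Log2 fold change of each tested gene in 6 lists, with the number tested in brackets, orange for called higher, blue for called lower and grey for not called, and black bars at list medians. The median of the inducing kinases and factors lies at -0.35 and that of AP-1 target genes at 0.91.

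Of 20 tested genes listed for restraining AP-1, 3 were called higher and 5 lower by edgeR (15% and 25%, against 19.0% and 21.8% of all genes), shares near the background, and the median was -0.03 against -0.04 over all genes. DUSP1 and DUSP5, phosphatases that switch off MAP kinases, both rose, DUSP1 from 12.7 ± 3.27 to 28.2 ± 0.48 CPM and DUSP5 from 0.44 ± 0.05 to 2.72 ± 0.70 CPM (edgeR adjusted p = 0.0019 and 4.31e-04). COPS5, a subunit of the COP9 signalosome that is also known as a coactivator of JUN, rose from 59.7 ± 11.0 to 114 ± 3.01 CPM. The corepressor gene NCOR1 fell from 188 ± 50.2 to 104 ± 2.33 CPM. MEN1, whose product binds JUND, fell from 221 ± 22.4 to 141 ± 4.32 CPM, and DET1, part of a ligase for JUN, from 13.1 ± 2.15 to 6.77 ± 0.62 CPM. FBXW7, another ligase component for JUN, was lower by a log2 fold change of -0.42 ± 0.13 (adjusted p = 0.036 by edgeR). It was no longer called with DMSO replicate 1 left out (0.078), nor with treated replicate 1, 2 or 3 left out (0.10, 0.14 and 0.13), nor without a filter on low counts (0.065). COP1, a ligase for JUN, was listed at 0 in all libraries and was not evaluated. By limma on log2(TPM + 1), DUSP1 and COPS5 were not called (adjusted p = 0.073 and 0.15). Without DMSO replicate 2 or 3 the list's higher calls numbered 5 each.

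Other basic leucine zipper factors, the possible partners and competitors, were called lower by edgeR in 7 and higher in 2 of 23 tested (30.4% and 8.7%, against 21.8% and 19.0% of all genes), with a median of -0.13. BACH2, a B cell repressor that binds AP-1-like elements, fell from 359 ± 44.0 to 113 ± 3.92 CPM (edgeR adjusted p = 1.10e-04). MAFF, a small MAF factor, rose from 4.36 ± 0.53 to 10.1 ± 0.59 CPM (7.90e-04 by edgeR). XBP1, the plasma cell and unfolded protein factor, differed by 0.44 ± 0.11 on the log2 scale, a call that was lost when treated replicate 1, 2 or 3 was left out (adjusted p = 0.057, 0.081 and 0.052 by edgeR). ATF5, NFE2L1 and TEF had log2 fold changes of -0.54, -0.41 and -0.82. NFE2L1 lost its call when treated replicate 1, 2 or 3 was left out (0.087, 0.085 and 0.061) and TEF without DMSO replicate 1 (0.069) or treated replicate 1 or 2 (0.072 and 0.064). ATF2, the partner of JUN at the variant element in the JUN promoter, stood at 63.6 ± 26.9 and 40.8 ± 1.05 CPM (adjusted p = 0.079 by edgeR), with an adjusted p of 0.026 if DMSO replicate 3 was left out, of 0.024 without a filter on low counts and of 0.023 by limma on log2(TPM + 1). JDP2, a repressive JUN partner, stood at 23.7 ± 2.37 and 19.1 ± 0.51 CPM (adjusted p = 0.087 by edgeR, and 0.033 without DMSO replicate 2). By limma on log2(TPM + 1), XBP1, ATF5, NFE2L1 and TEF were not called (adjusted p = 0.56, 0.079, 0.054 and 0.088). Lower calls in this list numbered 4 without DMSO replicate 1 and 2, 2 and 3 without treated replicate 1, 2 or 3, and higher calls 1 without any 1 treated replicate.

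Of 40 genes described as AP-1 targets in other cells, 26 could be tested, with a median of 0.91. By edgeR 14 were called higher and 6 lower (53.8% and 23.1%, against 19.0% and 21.8% of all genes), so the lower share was near the background. Among those called, CXCL8 (43 counts in all) and HMOX1 passed the filter only through the treated libraries, and TNFRSF8 only through DMSO. Their calls had a direction fixed by the filter and are no test. By limma on log2(TPM + 1) and log2(TPM + 0.1) the higher calls numbered 8 and 7. TNF, a cytokine gene, was at 26.2 to 27.4 CPM in treated libraries and IER3, an early survival gene, at 15.4 to 16.8 CPM. ICAM1, an adhesion molecule gene, rose from 7.11 ± 0.95 to 20.6 ± 1.07 CPM (edgeR adjusted p = 2.38e-04), and SQSTM1, an autophagy receptor gene, from 54.8 ± 10.2 to 164 ± 4.03 CPM. ETS1, a factor that binds beside AP-1, fell from 277 ± 24.5 to 118 ± 0.50 CPM, and the chemokine receptor gene CCR7 from 50.3 ± 7.64 to 19.5 ± 1.16 CPM. VIM and EZR, of the cytoskeleton, had log2 fold changes of -0.96 and -0.51. VIM was no longer called by edgeR without treated replicate 1 (adjusted p = 0.054) and EZR without treated replicate 1, 2 or 3 (0.064, 0.063 and 0.065). TNFRSF8, named after its values were seen, encodes CD30, which JUNB activates in Hodgkin and anaplastic lymphoma. It was at 0.62 ± 0.20 CPM in DMSO and 0.20 ± 0.02 CPM after treatment (edgeR adjusted p = 0.016). With 79 counts over the 6 libraries, it passed the filter only through the DMSO ones. It could therefore only be called lower, and that call is no test. The call was lost with DMSO replicate 1 (0.056) or treated replicate 1, 2 or 3 (0.063, 0.051 and 0.065) left out, and by limma on log2(TPM + 1) (0.058). The collagenase and stromelysin genes MMP1, MMP3 and MMP13, classical AP-1 targets of fibroblasts, had 3, 0 and 0 counts over the 6 libraries. The list's lower calls numbered 2, 3 and 3 without treated replicate 1, 2 or 3.

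The EGR, NR4A and IER genes, the other immediate early families, had 7 of 10 tested called higher by edgeR (70.0%, against 19.0% of all genes) and 0 lower (against 21.8%), with a median of 1.87; IER3 is in this list and among the targets. None of them was called lower by DESeq2 or limma, and 1 had an unadjusted edgeR p under 0.05 in that direction, while 1 was called lower without DMSO replicate 2. Beside the 40.3-fold difference of JUN, IER5L went from 0.51 ± 0.32 to 8.08 ± 0.89 CPM, IER2 from 15.2 ± 6.18 to 80.7 ± 6.16 CPM and EGR2 from 1.03 ± 0.42 to 4.98 ± 0.54 CPM. EGR3, also among the 7, was at 0.31 ± 0.18 CPM in DMSO and 1.15 ± 0.24 CPM after treatment. IER5L and EGR3 would not have passed the filter on their DMSO libraries alone. The filter thus favoured a higher call for both, and these calls are no test. All 7 genes called higher were EGR or IER genes, and no NR4A gene was called by edgeR with all libraries. NR4A1 stood at 19.6 ± 2.25 and 15.1 ± 1.54 CPM, with its treated values wholly below DMSO. NR4A2 and NR4A3 had log2 fold changes of -0.25 and 1.33. Whether the families differ was not tested.

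Genes with the most similar profile were found by the Euclidean distance between log2 CPM values, each taken relative to its DMSO mean, over the 6 libraries. For JUN the nearest protein-coding gene was SGK1 (distance 1.14 log2 units), a kinase gene, at 0.43 ± 0.04 CPM in DMSO and 13.0 ± 1.51 CPM after treatment. The other 4 nearest, RNA5SP443, RNA5-8SN3, MIR3648-2 and RNA5-8S5, were at 0 in every DMSO library, where the added prior count of 2 sets the distance, and belong to families with near-identical copies. For FOS the 5 nearest were RNA5SP443 (0.60), SGK1 (0.62), ARHGEF25 (0.86), TNF (1.02) and RNA5-8S5 (1.12). ARHGEF25 was at 0.02 ± 0.04 CPM in DMSO and 2.04 ± 0.35 CPM in treated cells. Its log2 fold change was 6.41 against 4.93 for FOS, so near this floor its short distance also depends on the prior count. With 6 libraries in 2 groups this likeness rests mainly on the size of the group difference.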

How the data were processed

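RNA of 6 SU-DHL-8 libraries was sequenced by the submitters. The authors deposited raw read counts, whole numbers with no normalization, and TPM, which they had scaled for transcript length and library size. Per the submitters' processing notes the tools were featureCounts 2.0.1, STAR 2.7.10, StringTie 2.2.1 and fastp 0.23.2 on GRCh38, the role of each being unstated. For the annotation, the strand setting and multi-mapping reads the method is not given in the sources used here. Listed TPM summed to 39.5% of a full total in DMSO replicate 2 and to 57.0% to 69.2% in the others, so TPM was used within libraries and in an alternative.

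From the 65807 rows, 61 repeated symbols were dropped, and 47323 genes were listed at 0 in all libraries. Among protein-coding genes this held for 91.3% of 634 whose symbol in the table differs from the GENCODE v29 symbol of the same ID, against 17.6% of 18521 others, so a listed 0 may not measure the gene. Counts were tested in R 4.3.3 with edgeR 4.0.16 (TMM, filterByExpr, quasi-likelihood test, treatment as the only term, two-sided, Benjamini-Hochberg over 11525 genes, threshold 0.05). An SE is the size of the log2 fold change divided by the root of F. On simulated counts of these genes the test found 64% of 2-fold and 96% of 4-fold changes among 200 altered genes. Of its calls there, 4.8% were false. In the sequenced libraries 40.8% of genes were called, and the median SD of log2 CPM was 0.27 for DMSO and 0.09 for treated replicates. Whether the simulated rates hold for such data was not tested. Counting intervals and depth limits cover counting error only.

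Members and lists were chosen with earlier results of these data known. In each list, all called genes are named where 5 or fewer were called in a direction, otherwise the 4 smallest p-values, plus ATF2, JDP2, MAPK8, SRF, FBXW7 and DUSP1 whatever their value. Alternatives were RLE factors or library totals, other filters, DESeq2 1.42.0, limma-trend (limma 3.58.1) on log2(TPM + 1) and log2(TPM + 0.1), a replicate block and each library left out. CXCL8, HMOX1 and EGR3 are named only for how they passed the filter. A planned search of protein sequences was not run. One gene that the rule names is not reported here.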

Additional observations from a re-analysis of the deposited data

How the results depend on the processing

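JUN, JUNB, FOS, FOSB, ATF3 and BATF3 were called higher under every alternative run, and no AP-1 gene was called lower. Recomputed log2 fold changes of AP-1 genes stayed within the replicate SD in 127 cases and moved further in 12. One of these was JUN without DMSO replicate 3 (5.47), and the others were on log2(TPM + 1) or log2(TPM + 0.1), where the median of all genes lay at -0.19 and -0.26 and a pseudocount shrinks low genes. FOSB was at 1.80 on the first scale, against 3.59. On those scales 713 and 691 genes were called higher, with 1 and 1 higher among other zipper factors, 1 and 1 among inducers, 1 and 1 among restraining genes and 8 and 7 among targets, and 8 restraining genes were lower on log2(TPM + 1). Without a filter 4 inducers were higher. The cause was not tested. With 1 library left out, all calls ranged from 1501 to 3091 higher and from 1593 to 3549 lower. AP-1 genes ranged from 6 to 8 higher and 0 lower. Other zipper factors ranged from 1 to 3 higher and 2 to 9 lower, inducers from 2 to 5 and 6 to 14, restraining genes from 3 to 5 and 4 to 6, targets from 10 to 14 and 2 to 8, and early genes from 7 to 8 and 0 to 1. Pairing of the libraries by replicate number was weak at most. Deviations of same-numbered libraries correlated at 0.039, 0.10 and 0.15, and each library correlated best with its own number. With a replicate block, 2306 genes were higher and 2437 lower, and 7 AP-1 genes were higher, JUND being added, while FBXW7 was at an adjusted p of 0.053. Depth limits FOSL1, which had 83 counts in all and was not tested at a minimum of 1 CPM in 3 libraries.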
